A study of Homo sapiens with 3 samples.

Results

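Long-chain fatty acids reach a cell's lipid pathways through uptake and activation, and 9 genes of these steps were followed in the human colorectal cancer line HCT-116 after loss of stearoyl-CoA desaturase-1 (SCD1) activity. The genes were 5 long-chain acyl-CoA synthetases (ACSL1, ACSL3, ACSL4, ACSL5 and ACSL6), the fatty acid transport proteins SLC27A2 and SLC27A4, the fatty acid-binding protein FABP5 and the scavenger receptor CD36. They were chosen by symbol, among probe sets that the platform annotation gives to exactly 1 gene. Of the 9 genes, 8 had such probe sets, 21 in all, out of 19775 genes with one and 54675 probe sets on the array. ACSL3 was not analysed here. The expression data came from 3 arrays, each of which was the only one of its condition: SCD1-WT cells treated with DMSO for 24 h, SCD1-WT cells treated with the SCD1 inhibitor T-3764518 for 24 h (100 nM, from the methods; called the inhibitor here), and SCD1-KO cells, made with CRISPR-Cas9 (called the knockout here). For the knockout, DMSO and the 24 h come from the methods and not from its labels. Its cells were grown from clones obtained by limiting dilution, and the sources used here do not say how many clones the array holds. With 1 array per condition no difference has a replicate check, no p-value was computed, and "higher" and "lower" describe these arrays only.

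A free fatty acid is chemically inert inside a cell until it is joined to coenzyme A. The acyl-CoA synthetases carry out this activation, and the acyl-CoA they make is the common substrate for desaturation by SCD1, elongation, oxidation, and synthesis of phospholipids and triglycerides. The ACSL paralogs share this reaction and differ in their location and preferred acyl chains. Proteins of the SLC27 family and CD36 promote uptake at the cell surface, and fatty acid-binding proteins such as FABP5 carry the poorly soluble acids in the cytosol. SCD1 itself acts on saturated acyl-CoA, so these genes supply its substrate.

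The array reads a gene through 1 or more probe sets, and each probe set has 1 signal per array, given by MAS5 on a linear scale. A probe set was kept where its mean log2 signal over the 3 arrays reached the median over the whole array, which is a signal of 56.6. For each gene the log2 ratios of its kept probe sets were reduced to their median, and it was called where that reached 2-fold. This left 9 of the 21 probe sets and 6 of the 9 genes (ACSL1, ACSL4, ACSL5, SLC27A2, SLC27A4 and FABP5), among 12321 genes tested. Among these probe sets, the nearest to the limit from below was 216409_at of ACSL6, with a geometric mean signal of 56.0, and the nearest from above was 225779_at of SLC27A4, with 526. Spread was read as the SD of the log2 ratio between probe sets of the same gene. For T-3764518 over DMSO it was 0.59 in the dimmest quintile of tested genes and 0.23 in the brightest. This SD comes from the same arrays as the ratio, so an error shared by all probe sets of a gene is left out. Differences between cultures are not part of this SD either. Probe sets that read different transcripts can add to it.

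The median signal was 56.7 to 68.8 on the 3 arrays, and the mean after trimming was 500.1 on each. SCD itself, by the geometric mean of 4 probe sets, had a signal of 2907 with DMSO, 14919 under the inhibitor and 5506 in the knockout, and no source used here places the deleted part on its probe sets, so this does not check the knockout. All 5 epithelial markers were kept and their brightest probe sets ranged from 1285 to 29344, and they did not go one way in the knockout. EPCAM (16859 with DMSO and 6840 in the knockout) and CDH1 (5038 and 1285) were lower there, while the keratins KRT8 (12259 and 15723), KRT18 (23407 and 28120) and KRT19 (25313 and 26158) were higher. Of 5 markers of other cell types, PTPRC, ADIPOQ and PLIN1 lay at or below 29.0 on every array, while PECAM1 reached 253 and COL1A1 1409. The part of these differences in the results below was not tested. An array reads the RNA of a whole culture, so fewer cells of a kind and less RNA per cell cannot be told apart.

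**Figure D1:**
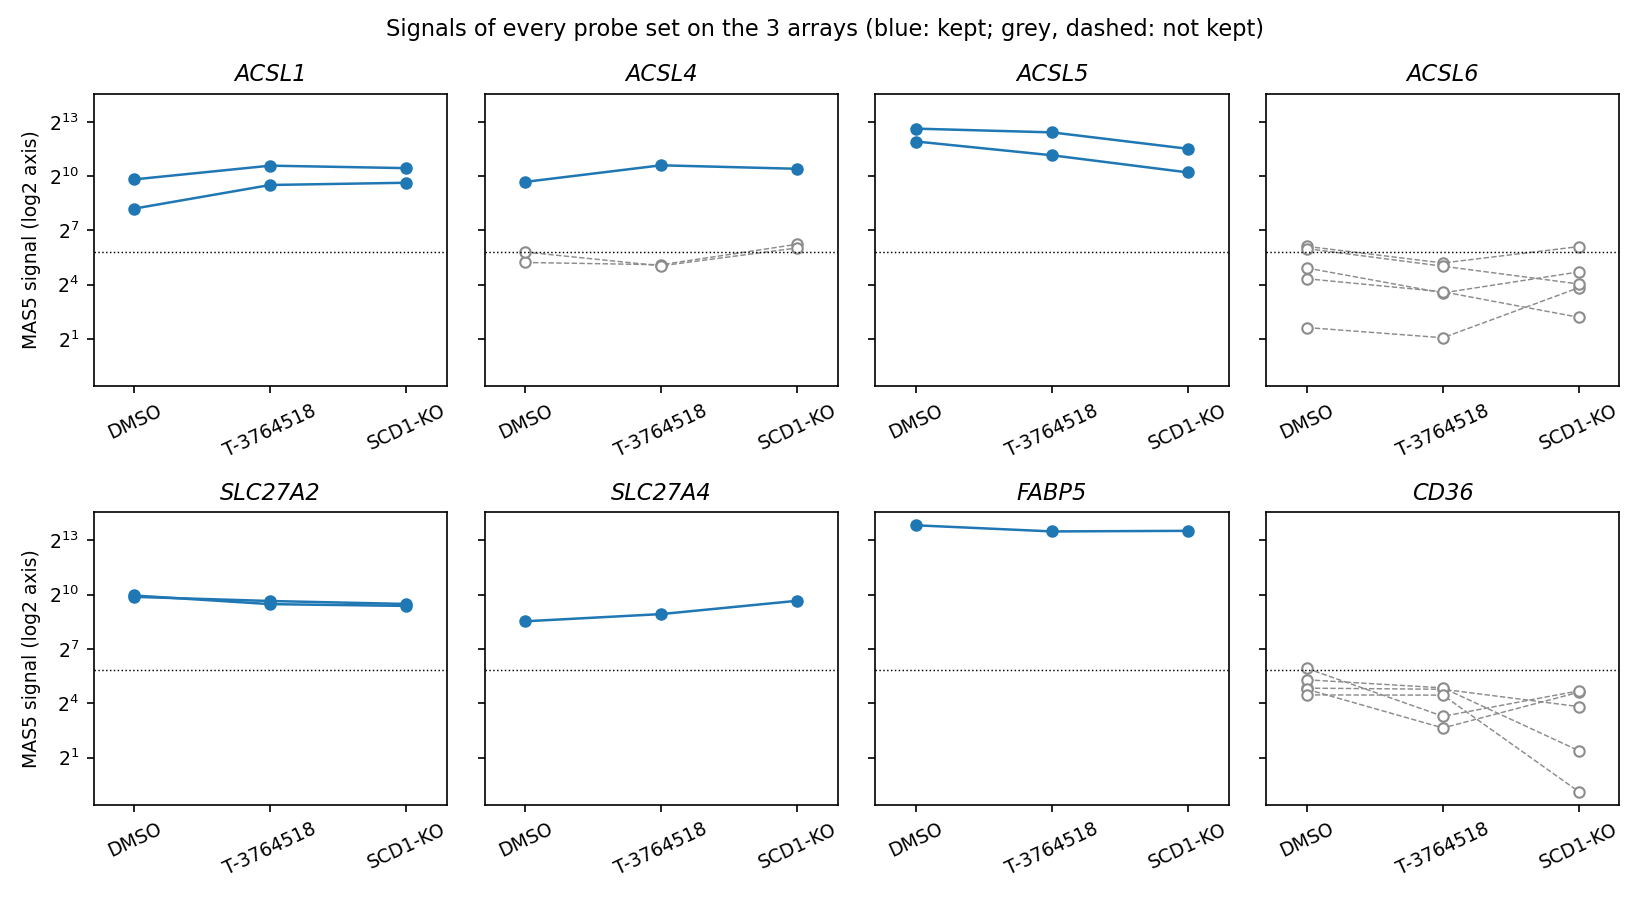
MAS5 signal (vertical axis, log2 scale) of each of the 21 probe sets on the arrays of SCD1-WT cells with DMSO, SCD1-WT cells with T-3764518 and SCD1-KO cells, with 1 panel per gene. Points are single signals, lines join the same probe set and stand for no time course, filled blue points are kept probe sets, open grey points are those not kept, and the dotted line is the filter level of 56.6. The kept probe sets of ACSL1 and ACSL4 sit higher on both other arrays than with DMSO, those of ACSL5 sit lower, the 2 dim probe sets of ACSL4 are lower with T-3764518, and no probe set of ACSL6 or CD36 was kept.

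Among the 6 genes with kept probe sets, 1 was higher under the inhibitor and 0 were lower, against 2.18% and 3.3% of all tested genes. In SCD1-KO cells 2 were higher and 1 lower, against 3.12% and 3.93% of all tested genes. The median log2 ratio of the 6 genes was 0.030 under the inhibitor and 0.21 in the knockout, beside -0.087 and -0.011 for all tested genes. The genes did not share a direction. In each ratio 3 of the 6 genes lay above 0, against 41% of all tested genes under the inhibitor and 48.9% in the knockout. The same 3 did so in both, ACSL1, ACSL4 and SLC27A4, while ACSL5, SLC27A2 and FABP5 lay below 0 in both. The share of all tested genes with the same sign in both ratios was not computed. Both ratios are taken to the same DMSO array, so that a high or low DMSO signal moves both the same way.

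The promoters of the called genes are shown because ACSL1 and SLC27A4 lay above and ACSL5 below their DMSO level in the knockout. The windows are the 250 bases before a transcript start in RefSeq on GRCh38.p14, 5′ to 3′ along the gene, and those of the called genes that hold a searched motif are printed. Capitals mark matches on either strand to the sterol regulatory element (SRE, TCACNCCAC), the E-box CACGTG, the antioxidant response element TGACNNNGC, the GC box GGGCGG, the TATA box TATAAA, or a direct repeat of AGGTCA with 1 base between (DR1).

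ACSL1, the most upstream of 5 starts, chr4:184825969-184826218, minus strand: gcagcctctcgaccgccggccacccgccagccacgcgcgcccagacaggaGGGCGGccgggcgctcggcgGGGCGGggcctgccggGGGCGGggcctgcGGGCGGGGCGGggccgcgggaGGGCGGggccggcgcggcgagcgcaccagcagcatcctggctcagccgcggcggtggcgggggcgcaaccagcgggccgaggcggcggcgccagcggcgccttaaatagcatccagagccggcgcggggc
ACSL1, the most downstream of 5 starts, chr4:184805554-184805803, minus strand: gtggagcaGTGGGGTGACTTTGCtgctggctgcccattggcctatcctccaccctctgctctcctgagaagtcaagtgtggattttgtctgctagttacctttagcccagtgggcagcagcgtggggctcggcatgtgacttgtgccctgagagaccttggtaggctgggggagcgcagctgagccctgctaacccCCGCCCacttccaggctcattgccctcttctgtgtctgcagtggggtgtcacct
SLC27A4, chr9:128340277-128340526, plus strand: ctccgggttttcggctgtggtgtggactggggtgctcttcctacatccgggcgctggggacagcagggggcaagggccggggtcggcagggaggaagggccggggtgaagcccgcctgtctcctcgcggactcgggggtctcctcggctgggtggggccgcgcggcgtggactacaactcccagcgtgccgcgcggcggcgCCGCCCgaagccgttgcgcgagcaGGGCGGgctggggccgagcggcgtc
ACSL5, the more downstream of 2 starts, chr10:112375955-112376204, plus strand: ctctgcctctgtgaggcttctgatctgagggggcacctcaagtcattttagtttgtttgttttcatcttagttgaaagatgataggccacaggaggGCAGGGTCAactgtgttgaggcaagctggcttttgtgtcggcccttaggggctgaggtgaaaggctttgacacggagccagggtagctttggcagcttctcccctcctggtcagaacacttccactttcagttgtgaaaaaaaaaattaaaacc

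The most upstream window of ACSL1 had a GC content of 83.6% and held 6 GC boxes, of which 2 share a base. Its most downstream window held a match to the SRE, at 242 to 234 bases before the start on the opposite strand, which overlaps a match to the antioxidant response element at 236 to 228 bases, and 1 GC box nearer the start. SLC27A4 held 2 GC boxes in a window of 75.2% GC, and the window of ACSL5 shown had 48.8% GC and 1 match to the antioxidant response element. Over the 24 windows of 8 members, FABP5 left out, 2 windows held the SRE match (in ACSL1 and ACSL6), 5 the antioxidant response element, 9 a GC box, 2 a TATA box and none an E-box or DR1. Of all 35116 windows in the table, 0.883% held the SRE match, 10.9% the antioxidant response element, 42.6% a GC box, 10.7% a TATA box, 6.34% an E-box and 0.0171% DR1. Windows of 1 gene can overlap, the table does not hold every start, and which start these cells use was not measured. A match is a run of letters and was not shown to be a bound site.

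ACSL1 is the acyl-CoA synthetase of liver and adipose tissue and feeds both triglyceride synthesis and oxidation. Its probe set 201963_at read 905 on the DMSO array, 1530.5 on the inhibitor array and 1392 on the knockout array. The dimmer probe set 207275_s_at had 296, 729.9 and 795. Both probe sets were lowest with DMSO, and the inhibitor and knockout arrays were close to each other in both. The gene value was 2.04-fold higher under the inhibitor and 2.03-fold higher in the knockout, just past the threshold. The probe sets differed in size. The log2 ratio was 0.76 and 1.30 under the inhibitor and 0.62 and 1.43 in the knockout for 201963_at and 207275_s_at, and the gap between them exceeded the SD of a difference between 2 probe sets at this signal in both (0.55 against 0.46 and 0.81 against 0.43). The brighter probe set alone would not have been called. Among all tested genes, 2.06% had a higher ratio than ACSL1 under the inhibitor and 2.96% in the knockout.

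ACSL4 prefers arachidonate and other long polyunsaturated acids, which it directs into phospholipids, and is known as a gene that makes membranes prone to ferroptosis. Its kept probe set 202422_s_at read 823 on the DMSO array, 1552 on the inhibitor array and 1358 on the knockout array. DMSO was again the lowest, and T-3764518 the highest. The ratio was 1.89-fold under the inhibitor and 1.65-fold in the knockout (log2 ratios 0.92 and 0.72), short of the threshold in both. The other probe sets of ACSL4 were dim. 1557418_at had 37.5, 34.4 and 75.2, and 1557419_a_at had 55.9, 33.0 and 65.3, so that under the inhibitor both went the other way. When they were let in, the log2 ratio of ACSL4 under the inhibitor was -0.12 and that in the knockout 0.72.

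ACSL5 is abundant in the intestinal epithelium and is found on mitochondria and the endoplasmic reticulum. Its probe set 218322_s_at read 3860 on the DMSO array, 2277 on the inhibitor array and 1181 on the knockout array. For 222592_s_at they were 6319, 5475 and 2922. In both probe sets the SCD1-KO array was the lowest and T-3764518 lay between. ACSL5 was 2.66-fold lower in the knockout (log2 ratio -1.41, probe sets -1.71 and -1.11) and was 0.715-fold its DMSO level under the inhibitor (log2 ratio -0.48, probe sets -0.76 and -0.21). Only 1.67% of tested genes had a lower ratio in the knockout, and 0.609% of those in its quintile of signal. This was the largest ratio of the 6 genes relative to the spread between probe sets, 6.10 times an SD of 0.23. That SD is pooled over tested genes of its quintile. The 2 probe sets of ACSL5 itself lay farther apart than the SD of a difference between 2 probe sets at this signal, by 0.60 against 0.33 in the knockout and 0.55 against 0.33 under the inhibitor. On the same array the epithelial markers EPCAM and CDH1 were lower and KRT8, KRT18 and KRT19 higher, and their part in the lower ACSL5 signal was not tested.

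ACSL6 is chiefly a gene of brain, and its 5 probe sets were dim. Their signals were 3.10 to 69.4 with DMSO, 2.10 to 36.8 under the inhibitor and 4.59 to 68.9 in the knockout, and 3 of these 15 signals reached the filter level. No gene value is given for it, and across its probe sets the log2 ratio in the knockout ran from -2.13 to 2.20.

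**Figure D2:**
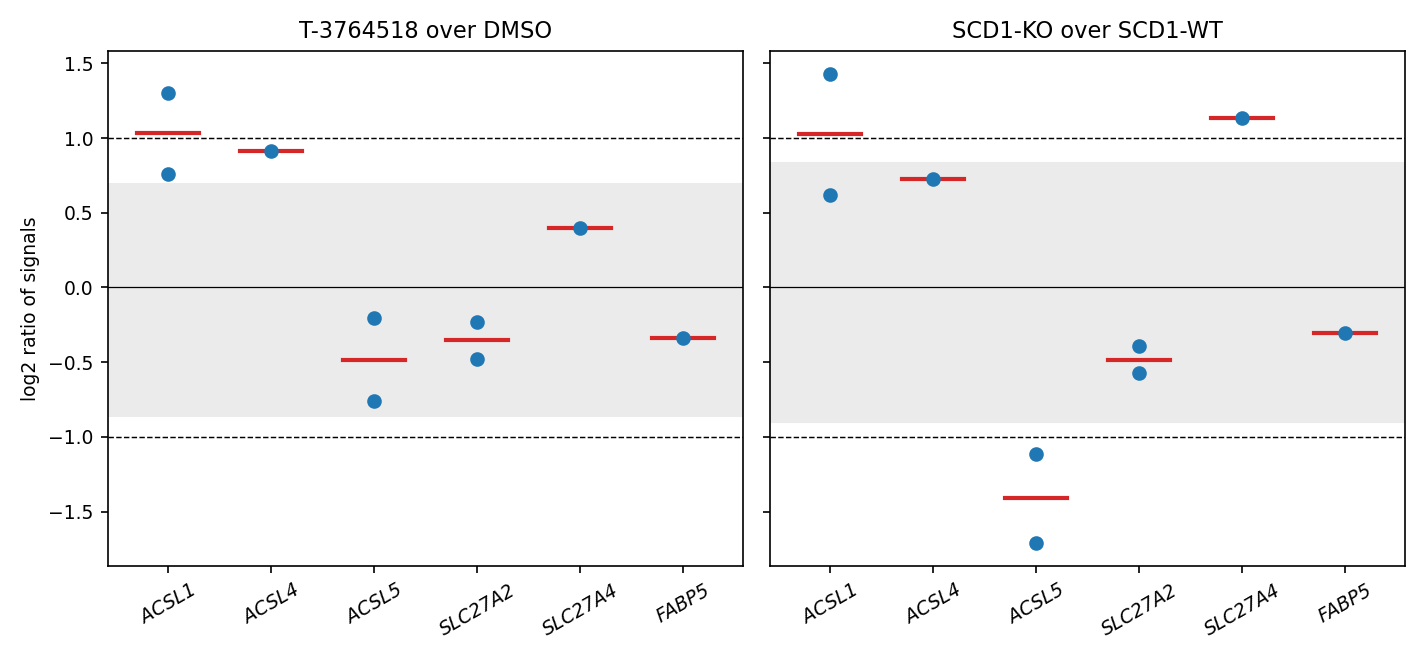
Log2 ratio of signals (vertical axis) for the 6 genes with kept probe sets, with T-3764518 over DMSO on the left and SCD1-KO over SCD1-WT on the right. Blue points are kept probe sets, red bars the gene value (their median), dashed lines 2-fold, and the grey band holds the tested genes between percentiles 5 and 95. ACSL1 lies above the band in both panels, ACSL4 above it with T-3764518 only, SLC27A4 above it and ACSL5 below it in SCD1-KO cells.

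By their kept probe sets, ACSL1 and ACSL4 thus lay above 0 and ACSL5 below it. The log2 ratio of ACSL1 exceeded that of ACSL5 by 1.52 under the inhibitor and by 2.43 in the knockout, which are 2.86-fold and 5.41-fold shifts of one paralog against the other. Each of the 4 pairs of their probe sets gave a difference in this direction, from 0.96 to 2.07 under the inhibitor and from 1.73 to 3.14 in the knockout, and the combined SD between probe sets was 0.40 and 0.38. By its 1 kept probe set, ACSL4 exceeded ACSL5 by 1.40 and 2.13. Without the signal filter, the log2 ratios under the inhibitor were -0.12 for ACSL4 and -0.48 for ACSL5, both below 0. In the knockout they were 0.72 and -1.41. Between ACSL1 and ACSL4 the difference was 0.12 and 0.30, within a combined SD of 0.46 and 0.43, and its sign depended on the probe set of ACSL1. Since these are differences of ratios within arrays, they say nothing of which paralog is the more abundant.

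SLC27A4 (FATP4) takes up long-chain fatty acids in the intestine and has acyl-CoA synthetase activity of its own. Its probe set 225779_at read 369 on the DMSO array, 486 on the inhibitor array and 809 on the knockout array. The SCD1-KO array stood highest. The gene was 2.19-fold higher in the knockout (log2 ratio 1.13), a ratio exceeded by 2.31% of tested genes, and was 1.32-fold its DMSO level under the inhibitor (log2 ratio 0.40). It rests on 1 probe set.

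SLC27A2 (FATP2) activates very long-chain fatty acids and is found in peroxisomes as well as at the cell surface. Its probe set 205768_s_at read 941 on the DMSO array, 803 on the inhibitor array and 717 on the knockout array, and 205769_at had 991, 712 and 666. DMSO was highest and SCD1-KO lowest in both. The gene was 0.783-fold its DMSO level under the inhibitor and 0.715-fold in the knockout (log2 ratios -0.35 and -0.48). These lie 1.10 and 1.60 times the spread between probe sets from 0.

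FABP5, the epidermal fatty acid-binding protein, had a single probe set, 202345_s_at, which read 14578 on the DMSO array, 11538 on the inhibitor array and 11799 on the knockout array. The other arrays were nearly equal and both below DMSO. The ratios were 0.791-fold and 0.809-fold, 1.44 and 1.32 times the spread between probe sets on the log2 scale. FABP5 has processed pseudogenes that are close to it in sequence, and the sources used here do not say whether this probe set also reads them.

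CD36, which binds long-chain fatty acids and oxidised lipoproteins at the surface of adipocytes, muscle and macrophages, had 5 probe sets and none was kept. Their signals were 22.0 to 60.5 with DMSO, 6.20 to 28.8 under the inhibitor and 0.541 to 25.7 in the knockout. Of these 15 signals 1 reached the filter level, that of 242197_x_at with DMSO (60.5), and no gene value is given for CD36.

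Ordered by their ratio under the inhibitor, the genes ran from ACSL1 through ACSL4, SLC27A4, FABP5 and SLC27A2 to ACSL5. The steps larger than the combined spread between probe sets were those from ACSL4 to SLC27A4 (0.52 against 0.49 on the log2 scale) and from SLC27A4 to FABP5 (0.74 against 0.43). The first only just passed that spread, and ACSL4 and SLC27A4 each rest on 1 kept probe set. Without the signal filter ACSL4 was at -0.12, below SLC27A4 at 0.40. In SCD1-KO cells the order was SLC27A4, ACSL1, ACSL4, FABP5, SLC27A2 and ACSL5. Here the steps from ACSL4 to FABP5 (1.03 against 0.38) and from SLC27A2 to ACSL5 (0.93 against 0.38) exceeded that spread, and the first 3 genes did not differ beyond it.

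Set directly against each other, the knockout and the inhibitor array differed by 2-fold in none of the 6 genes, against 4.52% of tested genes higher and 3.1% lower in the knockout. ACSL5 came nearest, 1.90-fold lower in the knockout, with log2 ratios of -0.95 and -0.91 from its 2 probe sets, and 3.65% of tested genes had a lower ratio. SLC27A4 was 1.66-fold higher. ACSL1 was 0.995-fold and FABP5 1.02-fold. ACSL4 and SLC27A2 were 0.875-fold and 0.914-fold, so 2 of the 6 genes lay above 0, against 55.2% of all tested genes. With 1 array each, whether this reflects the knockout, the clone or the array cannot be told apart.

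**Figure D3:**
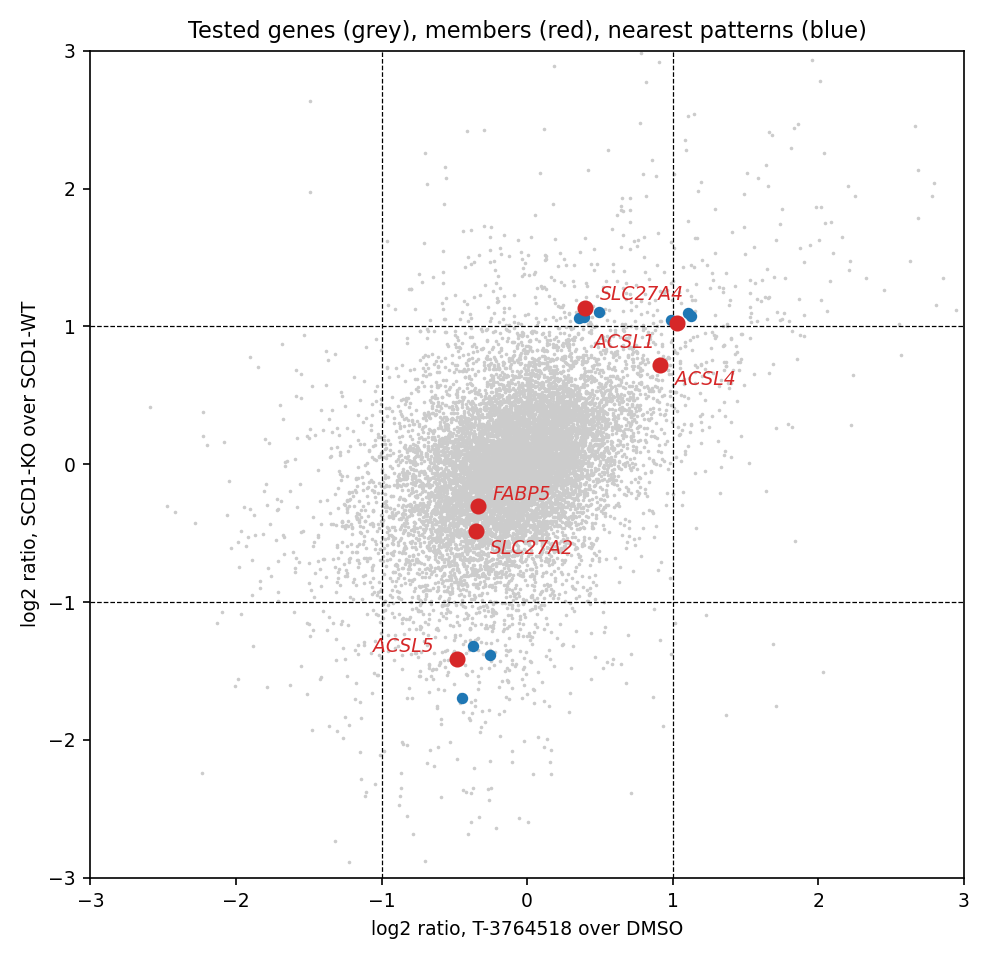
Log2 ratio in SCD1-KO cells over SCD1-WT cells (vertical axis) against that of T-3764518 over DMSO (horizontal axis) for the tested genes (grey), the 6 genes of uptake and activation (red, named) and the 9 genes nearest to a called one (blue). Dashed lines mark 2-fold, 30 genes lie outside the axes, and both axes share the DMSO array. ACSL1 sits just past 2-fold on both axes, SLC27A4 past it in SCD1-KO cells only, and ACSL5 past it downward in SCD1-KO cells only.

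For each called gene, the 3 tested genes with the nearest pattern were found by the distance between their log2 ratios to DMSO, over the 2 ratios and among genes of similar signal. For ACSL1 they were ZCCHC8 (distance 0.049), TRIM25 (0.11) and FASN, the fatty acid synthase (0.11), of 4341 genes searched. FASN had log2 ratios of 1.13 under the inhibitor and 1.07 in the knockout. For ACSL5 they were the histone demethylase KDM3A (0.15), INSIG2, which holds SREBP in the endoplasmic reticulum (0.23), and the mitophagy receptor BNIP3 (0.28), of 1954 genes. For SLC27A4 they were TRAF4 (0.060), NINJ1 (0.083) and AADAC (0.098), of 4820 genes. Over 3 arrays many genes lie close to any pattern, and these are descriptions of likeness only.

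The other genes of uptake, activation and use were read from 4 lists, with geometric mean signals where a gene had several kept probe sets. Their counts stand beside 2.18% of all tested genes higher and 3.3% lower under the inhibitor, and 3.12% and 3.93% in the knockout. Their medians stand beside -0.087 and -0.011 for all tested genes. In lists this short, 1 or 2 called genes are not read as a result about the list. Of 9 tested transporters, binding proteins and extracellular lipases, 1 was higher and 2 were lower under the inhibitor, and 1 was higher in the knockout. LIPG, the endothelial lipase, which frees fatty acids from lipoproteins, had signals of 207, 1328 and 906 with DMSO, T-3764518 and in the knockout, 6.43-fold and 4.39-fold higher. MFSD2A, the transporter of lysophospholipids that carry docosahexaenoate, had 201, 58.0 and 182, and was 3.47-fold lower under the inhibitor. Its inhibitor signal lay just above the filter level of 56.6. Without the signal filter the log2 ratio of MFSD2A was -1.37, against -1.79 as reported. SLC27A3 had 286, 137 and 170.5, 2.09-fold lower under the inhibitor. It lost this call in all 4 alternatives that changed its value (quantile normalization, 1 median signal, lowess and the offset), with log2 ratios up to -0.78. The other 4 of the 8 that gave it a value left it unchanged. The log2 ratios of the list had a median of 0.032 under the inhibitor and -0.24 in the knockout.

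Of 7 tested further acyl-CoA synthetases, 1 was higher in each ratio, and 2 were lower in the knockout. ACSS2, which activates acetate, had signals of 691, 2732 and 2515, 3.95-fold and 3.64-fold higher. ACSM3, a medium-chain synthetase of mitochondria, had 260.2, 269 and 83.4 and was 3.12-fold lower in the knockout. ACSBG2 had 103, 88.7 and 49.1, the last of which is under the filter level. Its call was lost in all 5 alternatives that changed its value (log2 ratios up to -0.87), and the other 3 of the 8 left it unchanged. As with the ACSL paralogs, the direction differed from gene to gene, and the list's median was -0.14 under the inhibitor and -0.45 in the knockout. The knockout median turned to 0.066 with the filter at percentile 75 and was -0.79 with the brightest probe sets, so it has no settled direction.

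Of 11 tested acyl-CoA binding proteins and thioesterases, which hold acyl-CoA in the cytosol or split it again, none was called under the inhibitor and 1 was lower in the knockout. This was the thioesterase ACOT11, with signals of 258, 142 and 116 (2.22-fold lower), which was not called with the offset (log2 ratio -0.999) or by its brightest probe set (-0.60) and had no value at percentile 75. DBI, the main acyl-CoA binding protein, was 1.19-fold and 1.33-fold its DMSO level. The list's median was -0.051 and -0.16, and that in the knockout turned to 0.17 both without a filter and at percentile 75.

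Of 9 tested first enzymes of acyl-CoA use, 1 was higher and 1 lower under the inhibitor, and 2 were lower in the knockout. GPAT3, which starts glycerolipid synthesis, had signals of 1203, 2908 and 2035, 2.42-fold higher under the inhibitor. DGAT2, which completes triglycerides, had 226, 91.9 and 181, 2.46-fold lower under the inhibitor. GPAT2 had 1645, 1038 and 390.1, 4.22-fold lower in the knockout, and the brain paralog CPT1C had 430.5, 258 and 213, 2.03-fold lower, a call lost with 1 median signal (log2 ratio -0.88) and with the offset (-0.96). The list's median was -0.66 under the inhibitor (-0.31 at percentile 75) and -0.024 in the knockout. CPT1A, which commits acyl-CoA to oxidation in mitochondria, was 0.926-fold and 1.36-fold.

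**Figure D4:**
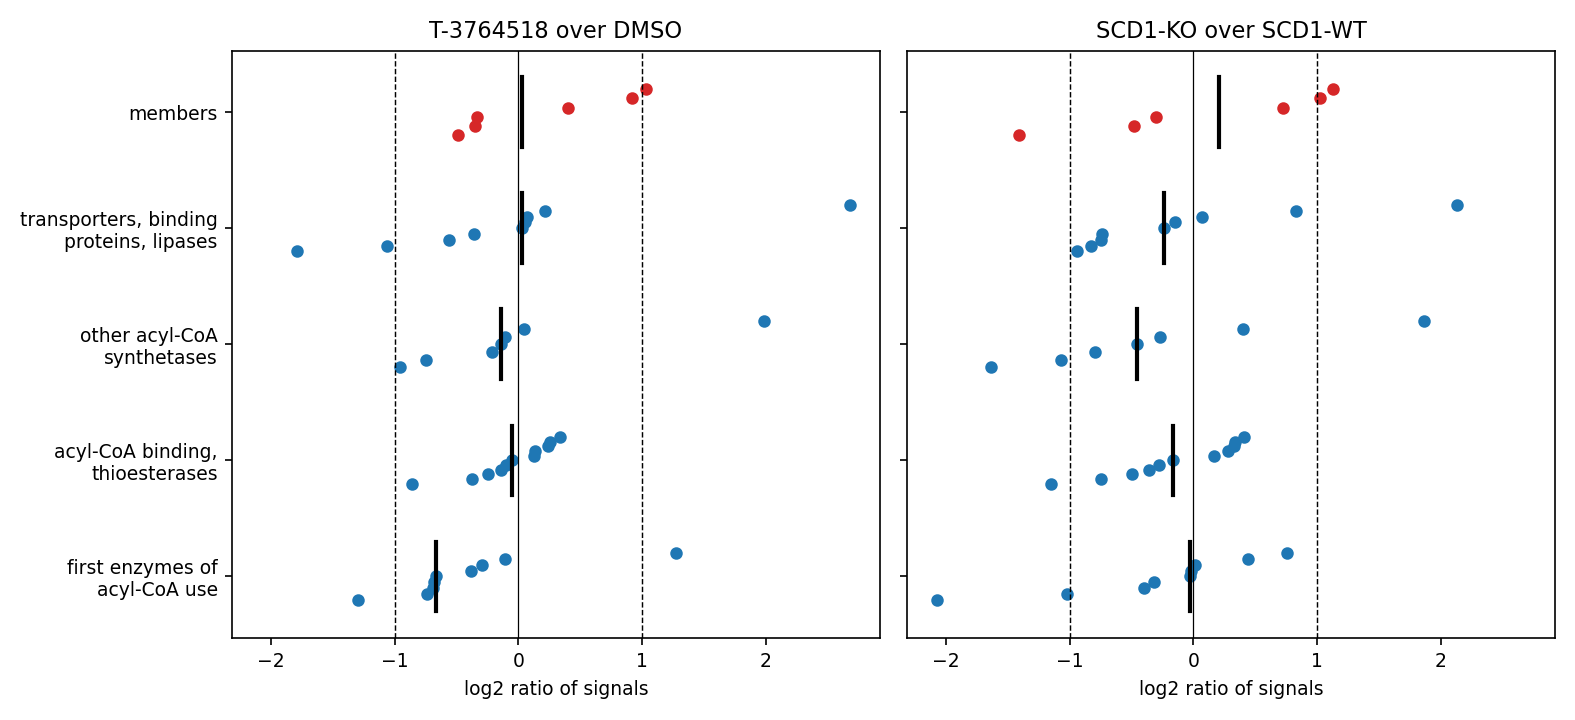
Log2 ratio of signals (horizontal axis) of each tested gene in the 6 genes of uptake and activation (red) and in 4 lists of related genes (blue), with T-3764518 over DMSO on the left and SCD1-KO over SCD1-WT on the right. Black bars are medians, dashed lines 2-fold, and points are spread vertically only to be seen. LIPG and ACSS2 lie farthest to the right in their lists in both panels, and the median of the first enzymes of acyl-CoA use is -0.66 in the left panel and -0.024 in the right.

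Many alternatives cannot alter a gene with 1 or 2 bright probe sets, so only those that changed a value bear on it. For SLC27A4 in the knockout, 4 alternatives changed the log2 ratio (quantile normalization, 1 median signal, lowess and the offset), to between 1.10 and 1.27. For ACSL5, 5 did, to between -1.42 and -1.11, and both genes stayed past 2-fold in these. For ACSL1, 6 did, of which 4 left it past 2-fold under the inhibitor and 3 in the knockout, and its brighter probe set gave 1.69-fold and 1.54-fold.

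**Figure D5:**
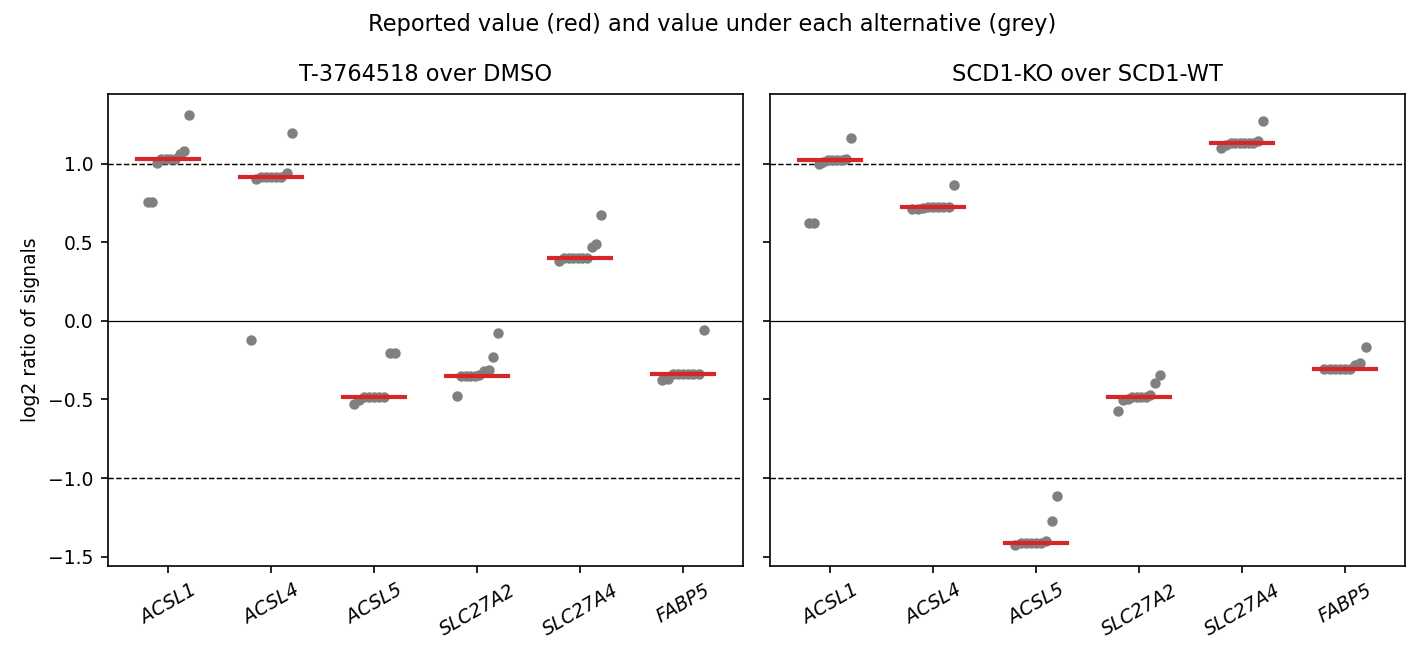
Log2 ratio of each of the 6 genes as reported (red bar) and under each alternative way of processing (grey points, 9 or 10 per gene, many at the reported value because that alternative cannot change it), with T-3764518 over DMSO on the left and SCD1-KO over SCD1-WT on the right. Dashed lines mark 2-fold. The grey points of ACSL1 fall on both sides of 2-fold, those of ACSL5 and SLC27A4 in SCD1-KO cells stay beyond it, and ACSL4 with T-3764518 has 1 point below 0, from the setting without a signal filter.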

How the data were processed

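RNA of 3 cultures of HCT-116 cells was hybridised to the Human Genome U133 Plus 2.0 Array by a service laboratory. The authors deposited 1 linear signal intensity per probe set. The submitters' processing notes name MAS5, without a version. MAS5 subtracts a local background and scales each array to the same trimmed mean (2% removed on each side here), so values are relative to the whole array, and detection calls were not used. The SCD1-KO signals were written with more decimals than the rest. Gene names came from the platform annotation (41097 with 1 symbol, 1801 with several, 11777 not listed), and all 8 measured members had the same symbol in RefSeq by gene ID. Groups followed the sample titles.

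Signals were taken to log2 and probe sets kept at or above percentile 50 of the mean log2 signal. Each gene's ratio was the median over its kept probe sets, called at 2-fold. No test was possible with 1 array per condition; members are set against the share of all 12321 tested genes past 2-fold. The rule for named genes was all 9 genes, SCD, the 3 nearest patterns to each called gene (mean log2 signal within 1), and the called genes of each list. DBI and CPT1A, which were not called, were named after their values were seen. The genes and the 4 lists were chosen with earlier results of these data known. Alternatives are given in the closing section. The tools were pandas 2.3.3, numpy 2.4.6, statsmodels 0.14.6, scipy 1.17.1 and matplotlib 3.10.9 in Python 3.11.15.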

Additional observations from a re-analysis of the deposited data

How the results depend on the processing

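With 1 array per condition no array could be left out and no paired analysis was possible. Scaling the arrays to 1 median signal moved the median of all tested genes by 0.28 under the inhibitor and by 0.14 in the knockout; it gave 2 members higher under the inhibitor, ACSL4 (log2 ratio 1.19) joining ACSL1, and by its construction it shifts every gene's ratio alike. Without a signal filter 8 members had a value, including ACSL6 and CD36 from dim probe sets: the members' median was -0.35 under the inhibitor and -0.26 in the knockout, and 2 were lower in the knockout. Adding an offset of 16.5 to every signal left 1 member higher in the knockout, with ACSL1 at a log2 ratio of 0.995. The brightest probe set per gene gave 0 members higher under the inhibitor and 1 in the knockout, since ACSL1 fell short. Without probe sets marked _s_at or _x_at, whose probes may fit more than 1 transcript or gene, only 3 members were left, ACSL1, SLC27A2 and SLC27A4: 0 were higher under the inhibitor, 1 was higher and 0 were lower in the knockout, and the medians were 0.40 and 0.62. At a threshold of 1.5-fold 2 members were higher under the inhibitor, and at 3-fold 0 were higher under the inhibitor, 0 were higher and 0 were lower in the knockout. Quantile normalization and a lowess correction of the ratios changed none of the counts of members called. A filter at percentile 75, the mean of the probe sets and raising dim signals to the filter level could not change a member, since none has more than 2 kept probe sets and all of these are bright. No called member changed its direction where it had a value. Of the values for single members and for the 4 lists, 58 moved past the spread between probe sets or past 1.5 times the count reported. Among the called genes of the lists, SLC27A3 and ACSBG2 lost their calls in every alternative that changed their values, and ACOT11 and CPT1C under some. LIPG, MFSD2A, ACSS2, ACSM3, GPAT2, GPAT3 and DGAT2 kept theirs wherever they had a value. LIPG, MFSD2A, ACSS2, GPAT2 and GPAT3 each rest on 1 kept probe set, so taking the brightest or the mean could not change them. MFSD2A, ACSM3 and DGAT2 had no value at percentile 75, and ACSS2, GPAT3 and DGAT2 had none without _s_at and _x_at. The lists' medians changed sign under at least 1 alternative, except that of the first enzymes of acyl-CoA use under the inhibitor and that of the transporters, binding proteins and lipases in the knockout, which stayed below 0. Dim signals limit ACSL6, CD36 and the other probe sets of ACSL4, and single probe sets limit ACSL4, SLC27A4 and FABP5.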
